A study of Oryza sativa with 6 samples.

Results

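The loci described here are 8 genes of rice that act in filling the grain with starch: 6 genes known from floury-endosperm mutants (FLO2, FLO4, FLO6, FLO7, UGP1, also called FLO8, and FLO16) and the amyloplast transporters BT1 and GPT1. They were taken by locus identifier, in a choice made with earlier results of these data known. All 8 were found among the 55986 loci of the table. The gene names come from published locus identifiers, since the deposited table holds identifiers only. All 8 passed the filter on low values, a mean of at least 1 RPKM in at least 1 group. RPKM scales reads by gene length and by library depth, so it can be compared between genes.

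In the cereal endosperm, sucrose delivered to the seed is turned into sugar phosphates and ADP-glucose in the cytosol. These enter the amyloplast, the starch-forming plastid, through envelope transporters and are built into starch granules there. When a gene of this route is defective, granules pack loosely and air spaces scatter light, which gives a white, chalky kernel described as floury.

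RNA was sequenced from dehulled seeds harvested 10 to 14 days after flowering, from plants kept at 27 °C with 12 h of light a day. The groups were the wild-type cultivar ZH11 (WT-1 to WT-3) and rbpl, 1 rice line with a knockdown of RBP-L (rbpl-1 to rbpl-3), with 3 biological repeats each and no further treatment. RBP-L is an RNA-binding protein, known in rice as a factor that binds the messenger RNA of seed storage proteins. The design asks which transcripts of the grain change when RBP-L is lowered. Because 1 line was set against the cultivar, RBP-L and the descent of that line cannot be told apart. Whole seeds hold endosperm, embryo and the maternal pericarp, so fewer cells of a type and less RNA per cell cannot be told apart either.

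Library totals recovered from the RPKM values ran from 44187374 to 50714582 reads. RBP-L (LOC_Os04g53440) checked the labels, with 62.8, 56.8 and 51.2 RPKM in the wild-type libraries against 15.1, 14.4 and 15.3 RPKM under knockdown. At many loci WT-1 departed from the rest of its group, so each result is also given without it where it matters. Markers of starchy endosperm were present, with 0 of 7 listed loci without reads. Their summed level was 24333 RPKM in WT-1, 16323 to 19062 RPKM in WT-2 and WT-3 and 15770 to 17999 RPKM in the knockdown. They did not move together: log2 fold changes by limma ran from −0.85 to 0.18, with 3 of 7 above 0. With all 6 libraries 0 of 7 passed an adjusted p of 0.05, beside 6.56% of all tested loci. The 4 listed loci of green tissue, none at 0, summed to 1849 RPKM in WT-1, 3723 to 4012 RPKM in WT-2 and WT-3 and 4306 to 5045 RPKM in the knockdown. All 4 had log2 fold changes above 0, from 0.49 to 0.88, and 2 of 4 rose by the same test, beside 3.46% of all tested loci. With 1 library left out 0 to 3 of the 4 rose, beside 1.04 to 8.51% of all tested loci. The 2 oil-body loci of embryo and aleurone, none at 0, summed to 4585 to 5135 RPKM in the wild type and 4512 to 5894 RPKM in the knockdown. The part of these differences in the results below was not tested.

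The 8 loci spanned a wide range of abundance. BT1 had the highest mean over the 6 libraries, 7218 RPKM, and took rank 4 among all loci of the table. FLO4 followed at 1546 RPKM (rank 36) and FLO16 at 630 RPKM (rank 123). UGP1, GPT1 and FLO7 lay closer together, with means of 228, 155 and 121 RPKM. FLO2 was lower, at 31.5 RPKM, and FLO6 was by far the lowest, at 4.19 RPKM. The mean of BT1 was thus 1722 times that of FLO6, and only FLO6 lay below the middle of the tested loci, 36.4% of which had a lower mean. The ranges of neighbours in this order did not overlap across the 6 libraries. The closest neighbours were GPT1 and FLO7, where GPT1 was 1.12 to 1.73 times FLO7 within a library, and UGP1 and GPT1, where UGP1 was 1.18 to 1.67 times GPT1. BT1 alone held 0.865 to 1.39% of the summed RPKM of a library, and 62.6 to 76.7% of that of the 8 loci.

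**Figure D1:**
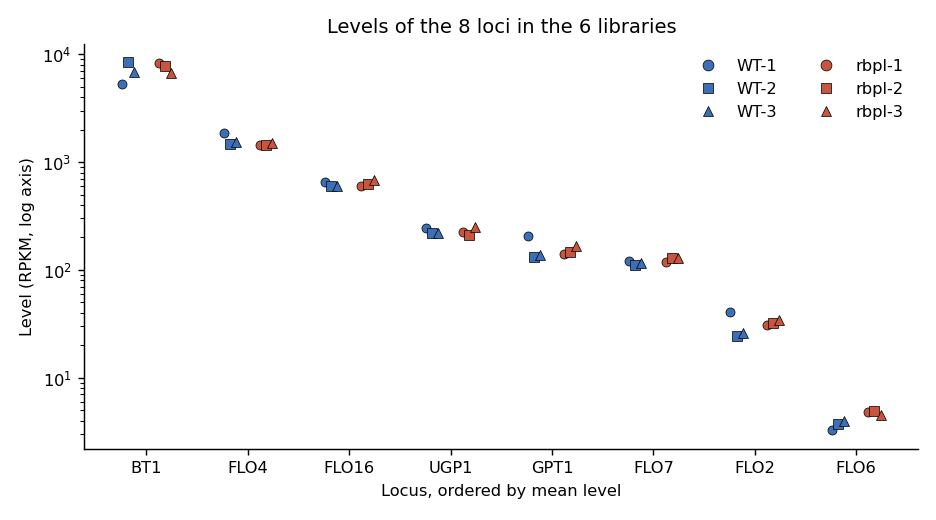
Level of each locus in RPKM on a log axis, with 1 point per library (blue, wild type; red, knockdown; circles, squares and triangles, replicates 1, 2 and 3). The order from BT1 at 7218 RPKM to FLO6 at 4.19 RPKM holds in each of the 6 libraries.

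None of the 8 loci changed past the threshold in the knockdown with all 6 libraries (0 rose and 0 fell; limma on log2(RPKM + 1), adjusted p below 0.05). Over all 17507 tested loci 6.56% changed, so 0 of 8 does not set these genes apart. At an unadjusted p below 0.05 the count was 1 of 8, FLO6, against 21.6% of all tested loci, and limma-voom on the recovered reads also called 0 of 8 (6.53% of all tested loci). The median log2 fold change of the 8, knockdown minus wild type, was 0.09, beside −0.04 over all tested loci. It was 0.12 without WT-1, 0.0094 without WT-2, 0.03 without WT-3 and 0.04 without rbpl-3, beside −0.06 to −0.02 over all tested loci. With median-of-ratios and upper-quartile scaling it was 0.16 and 0.14, beside 0.02 and 0.0045 over all tested loci. The groups overlapped at 7 of the 8 loci. At 1, FLO6, they did not, against 30.1% of all tested loci in either direction and 12.2% with the knockdown higher. No 95% interval of a fitted change reached 2-fold, and the largest fold inside any of them was 1.53, for BT1. These intervals are not adjusted for the number of loci.

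**Figure D2:**
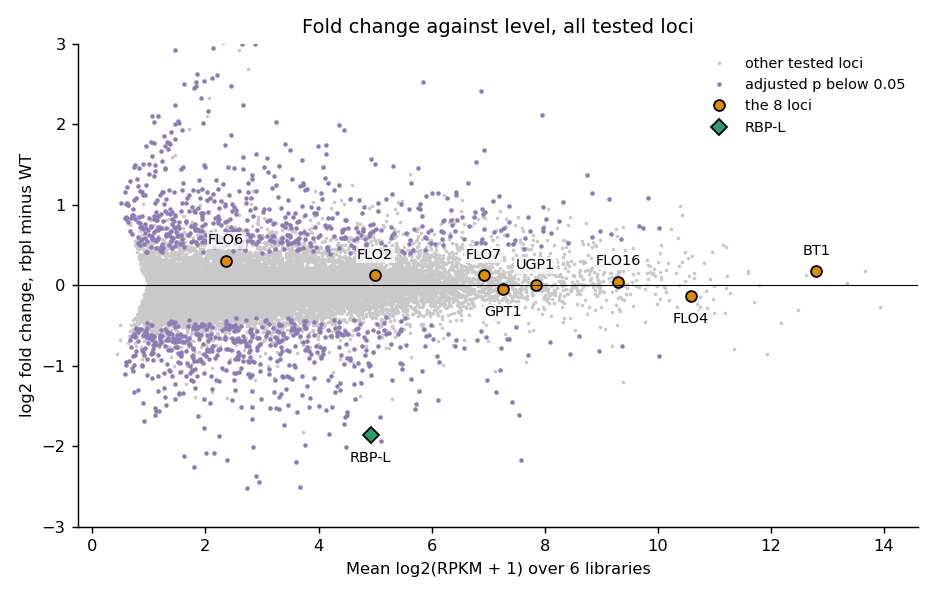
Fitted log2 fold change, knockdown minus wild type, against the mean log2(RPKM + 1) over 6 libraries, with 1 point per tested locus (violet, adjusted p below 0.05; orange, the 8 loci; green diamond, RBP-L); 32 loci lie beyond the axis limits of −3 and 3. The 8 loci sit between −0.13 and 0.31, while RBP-L sits at −1.86.

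FLO2 (LOC_Os04g55230, chromosome 4) encodes a tetratricopeptide-repeat protein whose loss in rice lowers the transcripts of many starch and storage protein genes. The 3 wild-type libraries, in order of their numbers, held 40.5, 24.6 and 26.2 RPKM and the 3 knockdown libraries 30.8, 32.3 and 34.4 RPKM. WT-1 was the highest library and WT-2 and WT-3 were the lowest, with the knockdown in between. The means were 30.4 ± 8.73 and 32.5 ± 1.77 RPKM (SD, n = 3 each), from 6200 to 10869 reads per library. The fitted log2 fold change was 0.13 (SE 0.18, 95% interval −0.29 to 0.55, adjusted p = 0.736 by limma). This value turned on WT-1. Without it FLO2 rose, with a log2 fold change of 0.34 (0.15 to 0.54, adjusted p = 0.0193 by limma), and each knockdown library lay above WT-2 and WT-3. Without WT-1, 18% of all tested loci changed, so that call too stands against a larger background. Over the 13 alternatives of processing the adjusted p of FLO2 ran from 0.0193 to 0.989, and without WT-2 its log2 fold change was −0.0056. The summed level of the endosperm markers above was likewise highest in WT-1, and its part in the level of FLO2 was not tested.

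FLO6 (LOC_Os03g48170, chromosome 3) encodes an amyloplast protein that binds starch and the debranching enzyme isoamylase. It was measured at 3.25, 3.71 and 3.98 RPKM in wild-type seeds and at 4.78, 4.96 and 4.48 RPKM in knockdown seeds. Each knockdown library was above each wild-type library. The means were 3.65 ± 0.370 and 4.74 ± 0.243 RPKM (SD, n = 3 each), a ratio of 1.30. The fitted log2 fold change was 0.31 (SE 0.11, interval 0.06 to 0.56) on the log2(RPKM + 1) scale, which understates the change of so low a locus. Its adjusted p was 0.148 by limma, so the difference did not pass over all tested loci. On the recovered reads limma-voom gave 0.38 (adjusted p = 0.146), and without WT-1 limma gave 0.24 (adjusted p = 0.126). An exact permutation test, two-sided, on its RPKM gave p = 0.1, the smallest that 3 against 3 libraries allow. In the authors' deposited table FLO6 has a log2 fold change of 0.38 and an unadjusted p of 0.0128, the only one of the 8 below 0.05. Of the loci with a p in it, 13.7% are below 0.05. FLO6 rested on 316 to 514 reads per library, for which counting alone gives a coefficient of variation of 5.29% in the wild type, where 10.1% was measured. The summed level of the 4 green-tissue loci also did not overlap between the groups, and its part in the level of FLO6 was not tested.

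FLO7 (LOC_Os10g32680, chromosome 10) encodes a plastid protein required for starch in the outer endosperm of rice. Wild-type seeds held 120, 110 and 115 RPKM, and knockdown seeds 118, 130 and 130 RPKM. WT-1 lay above rbpl-1, so the groups overlapped. Its log2 fold change was fitted at 0.13 (SE 0.10, interval −0.10 to 0.36, adjusted p = 0.501 by limma). FLO7 was the steadiest of the 8 across the wild-type libraries, with a coefficient of variation of 4.28%. It lay above 0 in all 13 alternatives, from 0.10 to 0.20, with an adjusted p of at least 0.221.

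Among the enzymes FLO4, UGP1 and FLO16, the knockdown mean was 0.907 to 1.03 times the wild-type mean. FLO4 (LOC_Os05g33570, chromosome 5) is the pyruvate orthophosphate dikinase gene PPDKB, whose enzyme interconverts pyruvate and phosphoenolpyruvate. Wild-type libraries 1 to 3 held 1859, 1462 and 1545 RPKM, and those of the knockdown 1447, 1452 and 1512 RPKM. WT-1 was again the highest library, and the other 5 lay within 1447 to 1545 RPKM. The means were 1622 ± 209 and 1470 ± 35.8 RPKM (SD, n = 3 each). The fitted log2 fold change was −0.13 (SE 0.13, interval −0.43 to 0.16, adjusted p = 0.591 by limma). Without WT-1 it was −0.03 (−0.22 to 0.15).

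UGP1 (LOC_Os09g38030, chromosome 9) encodes UDP-glucose pyrophosphorylase, which links UDP-glucose from sucrose breakdown to glucose 1-phosphate. Wild-type values were 246, 218 and 220 RPKM, and knockdown values were 223, 213 and 248 RPKM. The lowest and the highest library both belonged to the knockdown. The means were equal to 3 digits, 228 ± 15.4 and 228 ± 18.2 RPKM (SD, n = 3 each). The fitted log2 fold change was −0.00080 (SE 0.11, adjusted p = 0.999 by limma), and its interval, −0.26 to 0.25, leaves room for folds between 0.837 and 1.19.

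FLO16 (LOC_Os10g33800, chromosome 10) encodes a cytosolic malate dehydrogenase that uses NAD. In wild-type seeds it stood at 655, 600 and 603 RPKM, and in knockdown seeds at 603, 630 and 687 RPKM. Both groups had 2 or more libraries between 600 and 655 RPKM, and they overlapped. Its log2 fold change was fitted at 0.05 (SE 0.11, interval −0.20 to 0.30, adjusted p = 0.843 by limma).

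**Figure D3:**
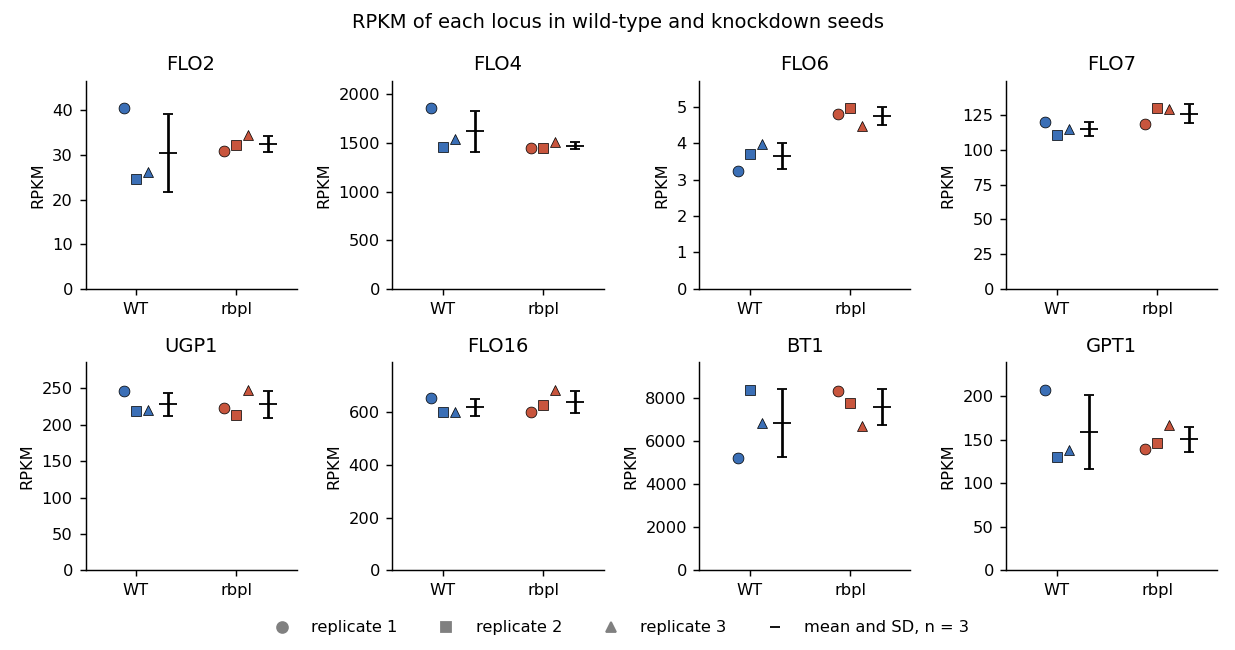
RPKM of each locus by group, each axis starting at 0 (points, libraries by replicate; black, mean and SD, n = 3). The groups overlap in each panel but that of FLO6, where the wild type reaches 3.98 RPKM and the knockdown starts at 4.48 RPKM.

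Among the 6 loci with a mean of at least 100 RPKM, the transporters had the highest coefficients of variation within the wild type, 26.7% for GPT1 and 23.1% for BT1; the lower FLO2 had 28.7%. BT1 (LOC_Os02g10800, chromosome 2) encodes the ADP-glucose transporter of the amyloplast envelope, through which the main substrate of starch synthesis enters. Wild-type seeds held 5243, 8404 and 6855 RPKM of it, and knockdown seeds 8351, 7759 and 6697 RPKM. WT-1 was the lowest library and WT-2 the highest, so the wild type enclosed the knockdown. The means were 6834 ± 1580 and 7602 ± 838 RPKM (SD, n = 3 each), from 427977 to 689760 reads per library. Counting alone gives a coefficient of variation of 0.134% in the wild type, so depth did not limit this value. Its log2 fold change was fitted at 0.17 (SE 0.19, interval −0.27 to 0.61, adjusted p = 0.649 by limma), and without WT-1 it was −0.0037 (−0.27 to 0.26).

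GPT1 (LOC_Os08g08840, chromosome 8) encodes a translocator that exchanges glucose 6-phosphate for phosphate across the plastid envelope. Libraries 1 to 3 of the wild type had 208, 131 and 138 RPKM, and those of the knockdown 140, 146 and 167 RPKM. WT-1 was the highest library by far and WT-2 and WT-3 were the lowest, as for FLO2. The means were 159 ± 42.5 and 151 ± 14.4 RPKM (SD, n = 3 each). Its log2 fold change was fitted at −0.05 (SE 0.18, interval −0.47 to 0.38, adjusted p = 0.912 by limma). Without WT-1 the sign turned, to 0.16 (−0.05 to 0.37, adjusted p = 0.283 by limma). With median-of-ratios and upper-quartile scaling it also lay above 0, at 0.03 and 0.0062, as did the median over all tested loci, at 0.02 and 0.0045.

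**Figure D4:**
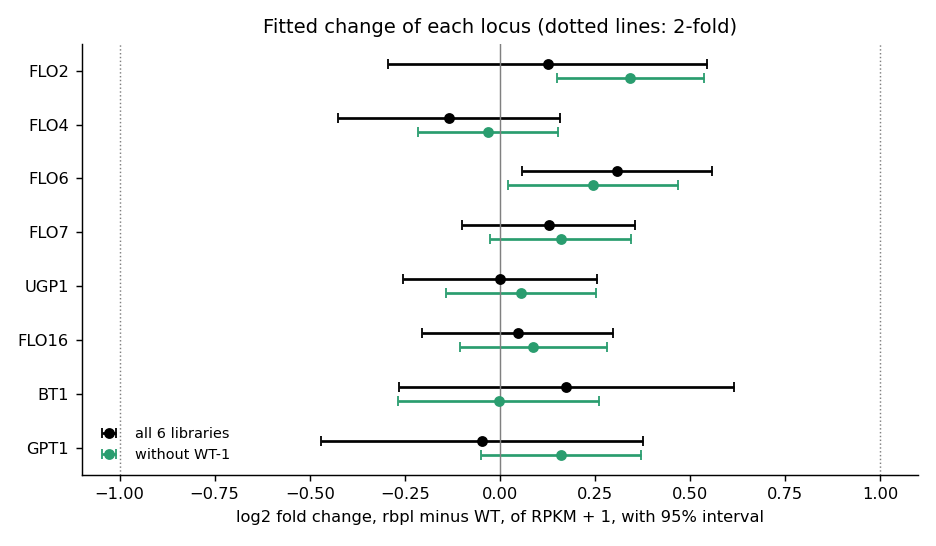
Fitted log2 fold change of each locus with its 95% interval (black, all 6 libraries; green, without WT-1; dotted lines, 2-fold). The estimates of FLO2 and GPT1 move to the right without WT-1, that of BT1 moves to the left, and each interval stays inside 2-fold.

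WT-1 differed from WT-2 and WT-3 in opposite directions at these loci. It lay above both at 6 of the 8 and below both at 2, FLO6 and BT1. Relative to the mean of WT-2 and WT-3, its level was 1.59 times for FLO2, 1.54 times for GPT1, 1.24 times for FLO4, 1.12 times for UGP1, 1.09 times for FLO16 and 1.07 times for FLO7. For FLO6 it was 0.845 times and for BT1 0.687 times. At 2 of the 8, FLO2 and GPT1, WT-1 was over 1.5-fold from both other wild-type libraries, as it was at 17.4% of all tested loci. With WT-1 set aside, the groups did not overlap at 5 of the 8 loci (FLO2, FLO6, FLO7, FLO16 and GPT1), each higher in the knockdown. Among all tested loci the share was 48.2%, counted in either direction. The share with the knockdown higher was not computed without WT-1, so the common direction of the 5 has no background beside it. Of these 5 only FLO2 passed the test across all loci.

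**Figure D5:**
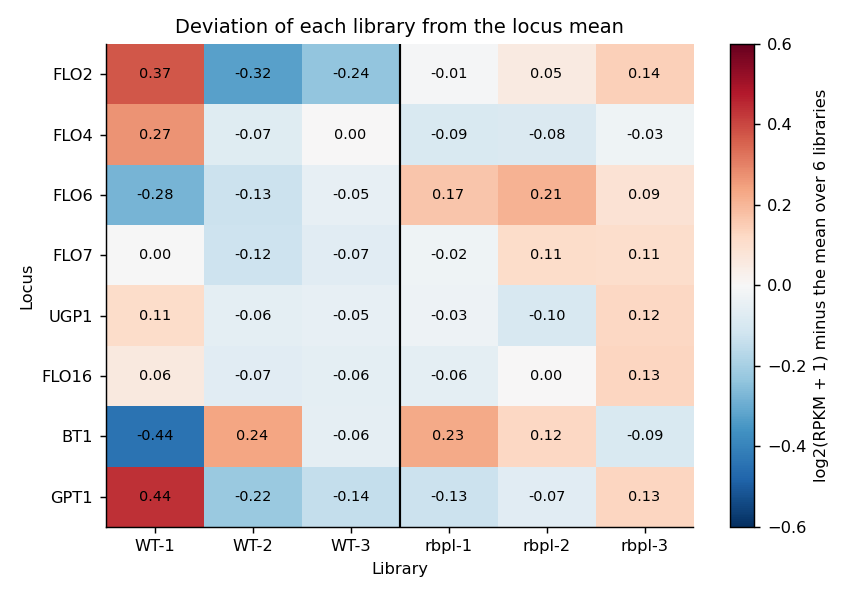
Deviation of log2(RPKM + 1) in each library from the mean of the locus over the 6 libraries (red, above; blue, below). WT-1 is 0.44 above for GPT1 and 0.44 below for BT1, and the knockdown libraries lie within 0.23 of the mean at each locus.

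The balance between the transporters differed between libraries. BT1 was 25.2, 64.3 and 49.6 times GPT1 in the wild-type libraries and 59.8, 53.2 and 40.1 times GPT1 in those of the knockdown. WT-1 had the lowest ratio and WT-2 the highest, so the knockdown ratios lay inside the wild-type range. An exact permutation test, two-sided, gave p = 0.8. Its smallest possible p here is 0.1, so it could not pass 0.05. Likeness of pattern was measured as the mean absolute difference of log2(RPKM + 1), centred on each gene's mean, over the 6 libraries. The most alike pair was UGP1 and FLO16, at 0.03, and the least alike was BT1 and GPT1, at 0.37. FLO2 was most like GPT1, at 0.09, FLO4 most like UGP1, at 0.08, and FLO7 most like FLO16, at 0.05. FLO6 was most like FLO7, at 0.10, and BT1 was most like FLO6, at 0.14. Over the 5 libraries without WT-1, the most alike pairs were GPT1 with FLO16 and UGP1 with FLO16, both at 0.04, FLO2 was most like FLO6, at 0.07, and BT1 and FLO2 were the least alike, at 0.20.

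A list of 26 loci of starch synthesis (ADP-glucose pyrophosphorylase, starch synthases, branching and debranching enzymes, phosphorylase and disproportionating enzymes) was drawn from published locus identifiers and is given as a group; 3 of them are also among the endosperm markers. Of these, 25 were in the table and 24 were tested. With limma 1 rose and 0 fell, beside 3.46% that rose and 3.1% that fell among all tested loci. At an unadjusted p below 0.05 the count was 9 of 24, beside 21.6% of all tested loci. The one that rose, LOC_Os07g22930 on chromosome 7, was picked out after its values were seen. Its means were 6.52 ± 0.455 RPKM in wild-type seeds and 10.0 ± 0.505 RPKM in knockdown seeds (SD, n = 3 each), with a fitted log2 fold change of 0.55 (adjusted p = 0.0177 by limma). Its call was lost when any library other than WT-1 was left out. The median log2 fold change of the list was −0.08, with values from −0.44 to 0.55, beside −0.04 over all tested loci. Its sign turned without WT-1, to 0.07 with 14 of 24 above 0, and it moved to −0.14 and −0.19 when WT-2 or WT-3 was left out and to −0.03 and −0.13 when rbpl-1 or rbpl-3 was. Without WT-1, 5 of the 24 rose and 1 fell, beside 8.51% and 9.51% of all tested loci. With all libraries limma-voom called 2 that rose, beside 3.31% of all tested loci. The summed level of the list was 6217 RPKM in WT-1, 4822 to 4878 RPKM in WT-2 and WT-3 and 4589 to 5068 RPKM in the knockdown. WT-1 was thus the highest library for this sum, as it was for FLO2, FLO4 and GPT1. LOC_Os07g22930 was picked because it rose, so it cannot show how far the list shared this. It had 7.02 RPKM in WT-1 and 6.39 and 6.14 RPKM in WT-2 and WT-3. The knockdown libraries had 9.75, 9.68 and 10.6 RPKM.

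The second loci of the PPDK and UGPase enzymes, assigned in the same way, were far lower than the members. The second PPDK locus had 5.24 ± 2.81 RPKM in the wild type and 5.21 ± 0.156 RPKM in the knockdown (SD, n = 3 each), and FLO4 was 220 to 453 times higher within a library. The second UGPase locus had 3.37 ± 0.167 and 3.13 ± 0.113 RPKM, and UGP1 was 61.6 to 76.2 times higher. With all 6 libraries neither passed the test (adjusted p = 0.891 and 0.683 by limma; unadjusted p = 0.765 and 0.435). Without WT-1, which held 8.46 RPKM against 3.23 and 4.04 RPKM in WT-2 and WT-3, the second PPDK locus rose, with a log2 fold change of 0.43 (adjusted p = 0.0193 by limma). Whether reads were shared between such related copies was not tested. Of the 80 loci around the members, the 5 tested ones before and the 5 after each, 3 rose and 0 fell, beside 3.46% and 3.1% of all tested loci. Without WT-1, 10 of the 80 rose and 6 fell, beside 8.51% and 9.51%. With any other library left out 1 or 2 rose and 0 fell, beside 1.04 to 2.12% and 0.993 to 2.07% of all tested loci. FLO2 lies on the same chromosome as RBP-L, with 68 tested loci between them.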

How the data were processed

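The authors deposited 1 table of RPKM values, 1 column per library, per the file headers, beside group means, their ratio and log2 fold change and an unadjusted p-value. Libraries were made with the NEBNext Ultra RNA kit, per the labels' protocols. How reads were aligned and counted, and on which build, is not given in the sources used here, so chromosomes come from the identifiers and no coordinates or sequences are printed.

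Whole reads and library totals were recovered from the steps of the RPKM values, within 0.001 reads. Where all 6 counts share a divisor the recovered reads are too low by that factor. Coefficients of variation from counting cover counting error only. Groups were compared with limma 3.58.1 in R 4.3.3 (trend and robust settings, group as the sole term) on log2(RPKM + 1). The 17507 loci averaging 1 RPKM or more in either group were fitted together, two-sided, and p-values were adjusted over all of them (Benjamini-Hochberg, 0.05). A fold change on this scale understates that of low loci. The comparison was repeated with a pseudocount of 0.1, no filter, a filter at 5 RPKM, median-of-ratios and upper-quartile scaling, limma-voom on the recovered reads, a replicate block and with each library left out. The main limma fit and the recovery of reads were tested on simulated data, and the alternative fits were not. Named genes were all 8 loci and RBP-L. The members and lists were chosen with earlier results of these data known. Python 3.11.15 with pandas 2.3.3, scipy 1.17.1 and matplotlib 3.10.9 was used for the other steps.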

Additional observations from a re-analysis of the deposited data

How the results depend on the processing

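RBP-L stayed lower in all 13 alternatives (log2 fold change −1.93 to −1.79, adjusted p at most 0.00402 by limma). Without FLO6, which the filter at 5 RPKM leaves out, 7 of the 8 loci could be tested there. Leaving out 1 library gave log2 fold changes of −0.0056 to 0.34 for FLO2, −0.0037 to 0.34 for BT1, −0.17 to 0.16 for GPT1, −0.063 to 0.054 for UGP1 and −0.0056 to 0.088 for FLO16. FLO2 passed the threshold only without WT-1 (0.34), the setting in which 1 rather than 0 of the 8 loci rose. UGP1 turned positive with median-of-ratios (0.075) and upper-quartile scaling (0.053), and GPT1 likewise (0.028 and 0.0062). The median over all tested loci also turned positive with these scalings, from −0.04 to 0.02 and 0.0045. FLO4, FLO6 and FLO7 kept their sign in every alternative run. Of the starch synthesis list, 0 to 5 rose and 0 to 1 fell with 1 library left out, beside 1.04 to 8.51% and 0.993 to 9.51% of all tested loci. With median-of-ratios scaling 3 rose (4.03% of all tested loci), with upper-quartile scaling 2 (3.9%) and with limma-voom 2 (3.31%). Over all tested loci, 182 to 1478 rose and 174 to 1652 fell with 1 library left out (1478 and 1652 without WT-1). Among the fewer loci left by a 5 RPKM filter 350 rose and 310 fell. With no filter 428 rose and 355 fell among 32287 loci. Why these counts moved was not tested. Replicate numbers only name the libraries. Deviations of same-numbered libraries correlated at 0.0476, 0.259 and −0.380, and the highest correlation was with the same number for 2 of 6 libraries. A replicate block in the model gave 963 changed loci (5.5% of all tested loci), among them 0 of the 8 loci and 0 of the starch list. At an unadjusted p below 0.05 the block gave 5 of the 24 list loci and 0 of the 8, beside 18.6% of all tested loci. Depth limits FLO6 most, at 316 to 514 reads per library.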
